A study of Mus musculus with 13 samples.

Results

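Messenger RNAs of spermatids, the haploid germ cells that become sperm, were measured in libraries of enriched Sertoli cells, the somatic cells that support germ cells in the seminiferous tubule. The genes were chosen by name from 46 transcripts known from round and elongating spermatids, and 45 of these had a row of that name among the 27111 named features of the deposited table. The 46th, the spermatid linker histone gene *H1fnt*, is listed there under its later symbol *H1f7*, and its values are given apart from the counts over members. All 45 passed the filter on low counts, which left 14421 genes for the comparison of groups, and their counts ran from 9 in the lowest library of *Lyzl4* to 10403 in the highest library of *Prm2*.

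Sertoli cells were sorted from the testes of 13 adult males, 6 controls and 7 that had been exposed to MSUS, the study's model of early life stress, in which maternal separation and stress of the mother both come unpredictably. The mice were wild type (labelled Bl6 wt, with C57Bl/6J given in the methods) and 3 to 5 months old, and no transgene marked the cells. As pups, the MSUS males had lost contact with the dam for 3 h a day over the first 14 days of life, on no fixed schedule. The dams met a stressor in that time, either forced swimming (5 min, 18 °C) or restraint (20 min). Neither procedure was applied to control litters. The control libraries held 13087203 to 18649945 counts each and the MSUS libraries 12701776 to 15693938, and libraries are called here by group and animal number.

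Spermatids first grow an acrosome, the vesicle whose enzymes and surface proteins meet the egg, and then elongate, condense the nucleus and build the tail. During elongation histones give way to transition proteins and these to protamines, from mRNAs that are stored before they are translated. Sertoli cells hold elongating spermatids in pockets of their membrane until release and take up the residual bodies of cytoplasm that spermatids shed. The sort kept large diploid cells with a high MitoTracker signal, a gate set to leave haploid cells out by their DNA content. In the paper's check by vimentin staining, most but not all cells of this fraction were positive. What part other cells had in the spermatid messages was not tested. In bulk RNA of such a preparation, fewer spermatids or spermatid remnants and less RNA in each cannot be told apart.

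The labelled cell type was checked first. All 10 Sertoli cell markers passed the count filter, and their mean level was 8.76 ± 0.09 log2 CPM (counts scaled to library size, on a log2 scale; SD, n = 6) in controls and 8.73 ± 0.08 (SD, n = 7) in MSUS samples. *Clu*, a secreted chaperone, drew the most counts with a mean of 13.04 log2 CPM, followed by *Ctsl*, a lysosomal protease, with 11.56. No marker of the list differed at p under 0.05. The 45 spermatid genes together took 0.316% ± 0.047 (SD, n = 6) of the named counts of a control library and 0.346% ± 0.101 (SD, n = 7) of an MSUS library. The lowest share was 0.221%, in MSUS 26, and the highest was 0.516%, in MSUS 11, so both ends of the range were MSUS samples and the groups overlapped. Without MSUS 11 the share of the other 6 MSUS libraries was 0.318% ± 0.074 (SD, n = 6), and without MSUS 26 it was 0.367% ± 0.093 (SD, n = 6).

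Library MSUS 11 stood apart and is named before the results for that reason. It held the highest level of 38 of the 45 members, among them 12 of the 14 genes used in elongating spermatids and all 12 used earlier. MSUS 26 held the lowest level of 20 members, 10 of them late genes, while MSUS 1 was lowest for 9 and MSUS 23 for 7. Members moved together, so these counts are not separate observations. The share of all genes at an extreme in each library was not counted. Values without MSUS 11 and without MSUS 26 stand beside the results of each role.

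Members were grouped by role, and levels were compared between genes per kilobase of the longest coding transcript, because the messages differ in length. On that scale *Prm2*, the larger protamine that packs sperm DNA, had 947 CPM per kb and ranked 8 among 12922 genes with a length. *Tnp1*, a transition protein, ranked 20 with 635 CPM per kb, between the Sertoli cell markers *Clu* (4670 CPM per kb) and *Amhr2* (595 CPM per kb). *Prm1* with 336 and *Tnp2* with 319 CPM per kb followed, above *Sox9*, the transcription factor that defines Sertoli cells, at 100.3 CPM per kb. The median member had 16.1 CPM per kb against 7.62 for all genes with a length, 30 of the 45 members were above the median of all genes, and 12 were within the top 10%. The least abundant members per kb were *Lyzl4* (2.12 CPM per kb), *Catsper1* (2.14) and *Catsper3* (2.21), the last pair being subunits of the calcium channel of the sperm tail.

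**Figure D1:**
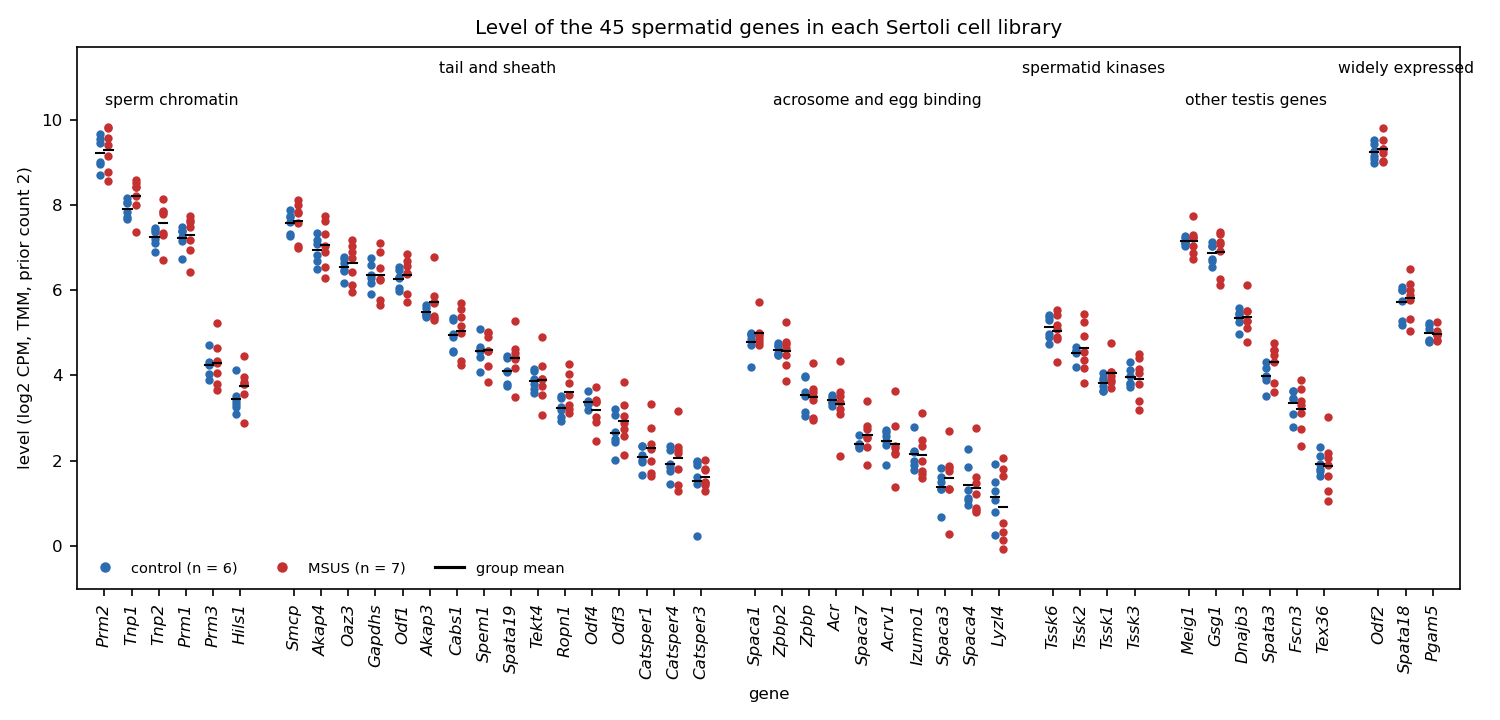
Level of each of the 45 genes (log2 CPM, y axis) in every library, by role along the x axis, with blue points for the 6 controls, red points for the 7 MSUS samples and short bars for group means. Levels run from below 0 for *Lyzl4* to above 9 for *Prm2* and *Odf2*, and the points of both groups overlap for every gene.

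The 6 genes of sperm chromatin were all in the late list. *Prm1*, *Prm2*, *Prm3* and *Tnp2* lie side by side on the minus strand of chromosome 16 of GRCm38, at 10796326 to 10805839, 10791380 to 10796134, 10790505 to 10790914 and 10787936 to 10788660, while *Tnp1* lies on chromosome 1 at 73015074 to 73015909, also on the minus strand. Late genes shared a pattern over the libraries, described further on, and its link to promoter sequence was not tested. Stretches of 120 bases just before start sites are shown for some of the members. They come from the RefSeq promoter windows of GRCm38.p6 and read 5′ to 3′ on the strand of the gene. Capitals mark TGACNTCA or its reverse complement, a relaxed form of the cAMP response element that CREM and its relatives are known to bind, and, in *Prm2*, TATAAA on the opposite strand. The first 5 genes are late, *Gsg1* is an early gene with a late pattern, *Tssk6* and *Tssk2* are the kinase genes whose pattern was closest to the late one, of which *Tssk6* was the closer without MSUS 11 and held no match to TGACNTCA in its window, and *Izumo1*, an early gene, is the one member that held the full element TGACGTCA.
Prm1 chr16:10796824-10796943 (minus strand): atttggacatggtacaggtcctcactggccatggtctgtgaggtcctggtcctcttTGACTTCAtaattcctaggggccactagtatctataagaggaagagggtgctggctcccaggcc
Prm2 chr16:10792106-10792225 (minus strand): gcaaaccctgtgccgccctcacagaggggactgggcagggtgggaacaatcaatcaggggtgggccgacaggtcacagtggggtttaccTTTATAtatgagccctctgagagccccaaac
Tnp1 chr1:73015900-73016019 (minus strand): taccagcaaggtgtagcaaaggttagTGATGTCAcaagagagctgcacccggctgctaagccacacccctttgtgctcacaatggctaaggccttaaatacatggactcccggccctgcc
Gapdhs chr7:30743682-30743801 (minus strand): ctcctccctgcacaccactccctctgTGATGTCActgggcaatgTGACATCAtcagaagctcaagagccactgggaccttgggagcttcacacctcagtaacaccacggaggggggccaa
Akap4 chrX:7067395-7067514 (plus strand): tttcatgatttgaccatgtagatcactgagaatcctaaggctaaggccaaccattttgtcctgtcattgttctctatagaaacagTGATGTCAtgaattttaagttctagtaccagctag
Gsg1 chr6:135254337-135254456 (minus strand): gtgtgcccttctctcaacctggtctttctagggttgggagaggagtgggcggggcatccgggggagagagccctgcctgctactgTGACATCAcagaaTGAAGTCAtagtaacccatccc
Tssk6 chr8:69902064-69902183 (plus strand): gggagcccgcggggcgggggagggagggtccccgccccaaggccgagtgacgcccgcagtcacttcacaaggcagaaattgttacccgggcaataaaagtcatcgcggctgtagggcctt
Tssk2 chr16:17898517-17898636 (plus strand): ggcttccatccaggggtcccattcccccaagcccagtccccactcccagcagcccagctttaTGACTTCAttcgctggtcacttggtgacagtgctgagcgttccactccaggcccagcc
Izumo1 chr7:45621691-45621810 (plus strand): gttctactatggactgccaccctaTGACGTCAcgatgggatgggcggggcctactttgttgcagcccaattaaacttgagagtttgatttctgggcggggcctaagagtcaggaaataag

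Windows from 250 bases before to 50 bases after a start site were found for 41 of the genes, *H1f7* included, with 54 windows in all. *Acr*, *Catsper1*, *Pgam5*, *Odf1* and *Oaz3* had none there. On either strand TGACNTCA was in 19 of the 54 windows (35.2%), belonging to 17 genes of which 7 were among the 13 late genes with a window, against 8.83% of all 32851 windows. In *Tnp1* the match was 94 to 87 bases before the start site, and in *Prm1* it was 64 to 57 bases before it. *Gapdhs* held a pair of matches in each of its windows. The full element TGACGTCA was in 1.85% of member windows and 1.79% of all windows, TGACGT in 9.26% and 7.51%, TGACG in 31.5% and 20.8%, and TATAAA in 9.26% and 13.6%. TGACGTCA is 1 case of TGACNTCA and contains TGACGT and TGACG, and windows of a gene can share bases. A match describes letters in a window and was not tested as a site.

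*Prm2* levels were 8.71, 9.22 and 9.66 log2 CPM at the lowest, median and highest control and 8.55, 9.39 and 9.83 in MSUS samples. *Tnp1*, whose protein follows the histones, had 7.66, 7.94 and 8.17 log2 CPM in controls and 7.35, 8.43 and 8.58 in MSUS samples. *Tnp2*, its partner, had 6.89, 7.29 and 7.45 log2 CPM in controls and 6.70, 7.79 and 8.14 in MSUS samples. For each of the 3 genes the lowest control was control 22, the lowest MSUS sample was MSUS 26, below all controls, and the groups overlapped. Relative to controls the log2 fold change in MSUS samples was 0.08 (SE 0.20, adjusted p = 0.967) for *Prm2*, 0.30 (SE 0.16, adjusted p = 0.878) for *Tnp1* and 0.32 (SE 0.18, adjusted p = 0.878) for *Tnp2*, by limma voom with Benjamini-Hochberg adjustment over all genes tested, and -0.010, 0.25 and 0.23 without MSUS 11. Without MSUS 26 these were 0.21, 0.45 and 0.48, when *Tnp1* and *Tnp2* passed unadjusted p under 0.05 but not adjustment (adjusted p = 0.952 each). *Prm1* (0.06), *Prm3* (0.04) and *Hils1* (0.32), a spermatid linker histone gene, completed the group, with -0.018, -0.12 and 0.21 without MSUS 11 and 0.21, 0.15 and 0.49 without MSUS 26, and none of these log2 fold changes over all libraries reached p under 0.05. *H1f7*, the member listed under another symbol, had 4.69, 5.07 and 5.45 log2 CPM in controls and 4.75, 5.22 and 6.08 in MSUS samples, a log2 fold change of 0.21 (SE 0.18, adjusted p = 0.895), and 0.08 without MSUS 11 and 0.32 without MSUS 26.

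Genes of the tail and of its sheaths formed the largest group, with 16 members. *Smcp*, a protein of the mitochondrial capsule of sperm, had 7.26, 7.65 and 7.88 log2 CPM in controls and 6.98, 7.81 and 8.10 in MSUS samples. *Akap4*, the main scaffold of the fibrous sheath, had 6.49, 6.95 and 7.33 log2 CPM in controls and 6.28, 7.04 and 7.73 in MSUS samples. *Oaz3*, the testis form of ornithine decarboxylase antizyme, had 6.16, 6.55 and 6.79 log2 CPM in controls and 5.96, 6.76 and 7.18 in MSUS samples. MSUS samples thus held both the lowest and the highest level of each of these genes. The log2 fold changes were 0.04 (SE 0.17), 0.13 (SE 0.20) and 0.09 (SE 0.17) in this order, and -0.042, 0.020 and 0.00025 without MSUS 11. Without MSUS 26 they were 0.14, 0.27 and 0.21. *Ropn1*, which binds kinase anchors of the fibrous sheath, had the smallest unadjusted p of the members. Its levels were 2.92, 3.22 and 3.51 log2 CPM in controls and 3.11, 3.54 and 4.27 in MSUS samples, with a log2 fold change of 0.37 (SE 0.19, adjusted p = 0.878), and 0.27 without MSUS 11 and 0.47 without MSUS 26. The groups overlapped, and the highest MSUS sample was MSUS 11. *Odf4*, of the outer dense fibers, had 3.19, 3.35 and 3.64 log2 CPM in controls and 2.47, 3.38 and 3.74 in MSUS samples. It was the one gene of the group with a negative log2 fold change, -0.20 (SE 0.17, adjusted p = 0.899), and its lowest library was MSUS 1. Without MSUS 1 the estimate was -0.071, without MSUS 11 it was -0.29, and without MSUS 26 it was -0.14.

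The 10 genes of the acrosome and of egg binding had a mean of 2.73 ± 0.20 log2 CPM (SD, n = 6) in controls and 2.74 ± 0.50 (SD, n = 7) in MSUS samples. *Spaca1*, a membrane protein of the acrosome, had 4.19, 4.90 and 4.99 log2 CPM in controls and 4.71, 4.92 and 5.72 in MSUS samples. *Zpbp2* had 4.47, 4.60 and 4.76 log2 CPM in controls and 3.86, 4.63 and 5.26 in MSUS samples, and its relative *Zpbp*, both being proteins that bind the zona pellucida, had 3.04, 3.57 and 3.98 in controls and 2.96, 3.52 and 4.29 in MSUS samples. MSUS 11 was the highest library for all 3 genes, while the lowest MSUS sample differed between them and was not MSUS 26. Their log2 fold changes were 0.23 (SE 0.16), -0.05 (SE 0.16) and -0.09 (SE 0.21), and 0.11, -0.17 and -0.22 without MSUS 11 and 0.24, 0.0066 and -0.10 without MSUS 26. The mean of the 10 genes in MSUS samples was 2.58 ± 0.29 (SD, n = 6) without MSUS 11 and 2.80 ± 0.51 (SD, n = 6) without MSUS 26. *Lyzl4*, a lysozyme-like protein of sperm and the lowest member per kb, had 0.26, 1.19 and 1.93 log2 CPM in controls and -0.07, 0.55 and 2.05 in MSUS samples, with a log2 fold change of -0.21 (SE 0.41, adjusted p = 0.950). Single libraries moved this estimate to -0.021 (without MSUS 1), -0.050 (without MSUS 26), -0.34 (without MSUS 11) and -0.43 (without control 10). At a median of 20 counts its counting error alone was 0.337 on the log2 scale, against an SD of 0.736 over all libraries.

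Among the 4 spermatid kinases of the TSSK family, *Tssk6* had 4.74, 5.14 and 5.43 log2 CPM in controls and 4.31, 5.09 and 5.54 in MSUS samples. *Tssk2* had 4.21, 4.57 and 4.66 log2 CPM in controls and 3.83, 4.54 and 5.44 in MSUS samples. For *Tssk1*, the neighbour of *Tssk2* on chromosome 16, the levels were 3.63, 3.83 and 4.06 log2 CPM in controls and 3.70, 3.99 and 4.77 in MSUS samples. MSUS 26 was lowest for *Tssk6* and *Tssk2* but not for *Tssk1*, and the groups overlapped for all of them. Their log2 fold changes were -0.08 (SE 0.17), 0.13 (SE 0.21) and 0.23 (SE 0.15), and -0.15, -0.0034 and 0.12 without MSUS 11 and 0.05, 0.28 and 0.25 without MSUS 26.

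Of the 6 other testis genes, *Meig1*, needed to build the manchette and tail, was the highest per kb (204 CPM per kb), at 7.04, 7.13 and 7.26 log2 CPM in controls and 6.73, 7.23 and 7.74 in MSUS samples. *Gsg1*, a germ cell gene, had 6.54, 6.88 and 7.13 log2 CPM in controls and 6.13, 7.08 and 7.37 in MSUS samples, and *Dnajb3*, a chaperone gene, had 4.97, 5.40 and 5.57 in controls and 4.78, 5.28 and 6.12 in MSUS samples. The controls of *Meig1* lay close together while its MSUS samples ran from MSUS 26 to MSUS 11 on both sides of them. Log2 fold changes were 0.01 (SE 0.12), 0.03 (SE 0.18) and 0.01 (SE 0.16) for *Meig1*, *Gsg1* and *Dnajb3*, and -0.087, -0.049 and -0.11 without MSUS 11 and 0.09, 0.17 and 0.12 without MSUS 26. *Spata3* had 3.52, 3.98 and 4.31 log2 CPM in controls and 3.61, 4.48 and 4.75 in MSUS samples, a log2 fold change of 0.35 (SE 0.18, adjusted p = 0.878). *Fscn3*, an actin bundling protein of spermatids, had 2.78, 3.47 and 3.64 log2 CPM in controls, 2.36, 3.30 and 3.88 in MSUS samples and a log2 fold change of -0.12 (SE 0.22, adjusted p = 0.946). Both genes overlapped between groups, and MSUS 23 was their lowest MSUS sample. Without MSUS 11 their log2 fold changes were 0.30 and -0.23, and without MSUS 26 they were 0.44 and -0.026.

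The other 3 members, *Odf2*, *Spata18* and *Pgam5*, are also expressed in many somatic cells. *Odf2*, an outer dense fiber protein that also serves the centriole, had 8.97, 9.20 and 9.51 log2 CPM in controls and 8.998, 9.31 and 9.81 in MSUS samples. *Spata18*, a regulator of mitochondrial quality, had 5.19, 5.87 and 6.08 log2 CPM in controls and 5.04, 5.89 and 6.49 in MSUS samples. *Pgam5*, a mitochondrial phosphatase, had 4.79, 4.96 and 5.24 log2 CPM in controls and 4.796, 4.95 and 5.25 in MSUS samples, and its SD of 0.169 over all libraries was the smallest of the members. Log2 fold changes were 0.08 (SE 0.12), 0.10 (SE 0.20) and -0.01 (SE 0.10), and -0.0051, -0.013 and 0.011 without MSUS 11 and 0.14, 0.19 and -0.0015 without MSUS 26. Without these 3 genes the members took 0.246% ± 0.037 (SD, n = 6) of the named counts in controls and 0.272% ± 0.084 (SD, n = 7) in MSUS samples, and 0.250% ± 0.065 (SD, n = 6) in the MSUS libraries other than MSUS 11 and 0.291% ± 0.076 (SD, n = 6) in those other than MSUS 26.

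Several of these values may include reads of a neighbour. On the same strand *Izumo1* overlaps *Rasip1*, *Zpbp* overlaps *Gm26458*, *Cabs1* overlaps *Gm28434*, *Dnajb3* overlaps *Gm20528* and *Lyzl4* overlaps *Gm47097*. On the opposite strand *Dnajb3* lies within the *Ugt1a* cluster, *Tssk1* overlaps *Dgcr2*, *Tssk6* overlaps *Ndufa13* and *Yjefn3*, and *Oaz3* overlaps *Tdrkh* and *Mrpl9*. There *Hils1* also overlaps *Sgca*, *Gsg1* overlaps *Fam234b*, *Fscn3* overlaps *Gcc1*, *Spaca4* overlaps *Fam83e* and *Tnp1* overlaps *1700027A15Rik*. Further opposite-strand overlaps are of *Prm1* with *Gm46563* and *Gm10343*, *Zpbp* with *Spata48*, *Gapdhs* with *Tmem147os* and *Lyzl4* with *Lyzl4os*. *Odf2*, *Odf3*, *Spaca7* and *Pgam5* have such neighbours too. The library kit marks strand, but whether the counting used it is not given in the sources used here, so reads of such pairs cannot be told apart.

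MSUS samples were compared with controls to ask whether spermatid messages differed with early life stress. None of the 45 members passed an unadjusted p under 0.05 in limma voom, where 5.42% of all genes tested did (3.02% higher and 2.4% lower in MSUS samples), and none passed after Benjamini-Hochberg adjustment, with a smallest adjusted p of 0.878. By edgeR's quasi-likelihood test 4 members were higher at unadjusted p under 0.05, *Tnp1*, *Tnp2*, *Spata3* and *Ropn1*, against 5.5% of all genes in either direction, and by DESeq2 it was 3, without *Tnp2*, against 5.79%. Neither tool called a member after adjustment. With sample quality weights 4 members were higher, against 4.13% of all genes. The groups did not separate for any member, and they did for 0.132% of all genes.

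The log2 fold change was positive for 33 of 45 members, against 49.5% of all genes, and its median was 0.08 against -0.0018 for all genes. The count depended on the tool and the scaling: it was 39 by edgeR (51.8% of all genes) and by DESeq2 (53.1%), and 27 with library size alone (44.8%). By role, all 6 genes of sperm chromatin and 15 of the 16 tail genes were positive, while 4 of the 10 acrosome genes were (8 by edgeR and by DESeq2), with medians of 0.19, 0.11 and -0.05. With library size alone 12 of the tail genes were positive, and without MSUS 11 the 3 groups had 3, 9 and 3 positive genes, against 6, 15 and 7 without MSUS 26. Without MSUS 11, 18 of the 45 were positive and the median was -0.01. Without MSUS 26, 38 were positive with a median of 0.17, and 6 members were higher at unadjusted p under 0.05 (the 4 of the edgeR test with *Hils1* and *Spata19*), against 3.07% of all genes in the same fit. Members share libraries and moved together, so these counts are not independent of each other.

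**Figure D2:**
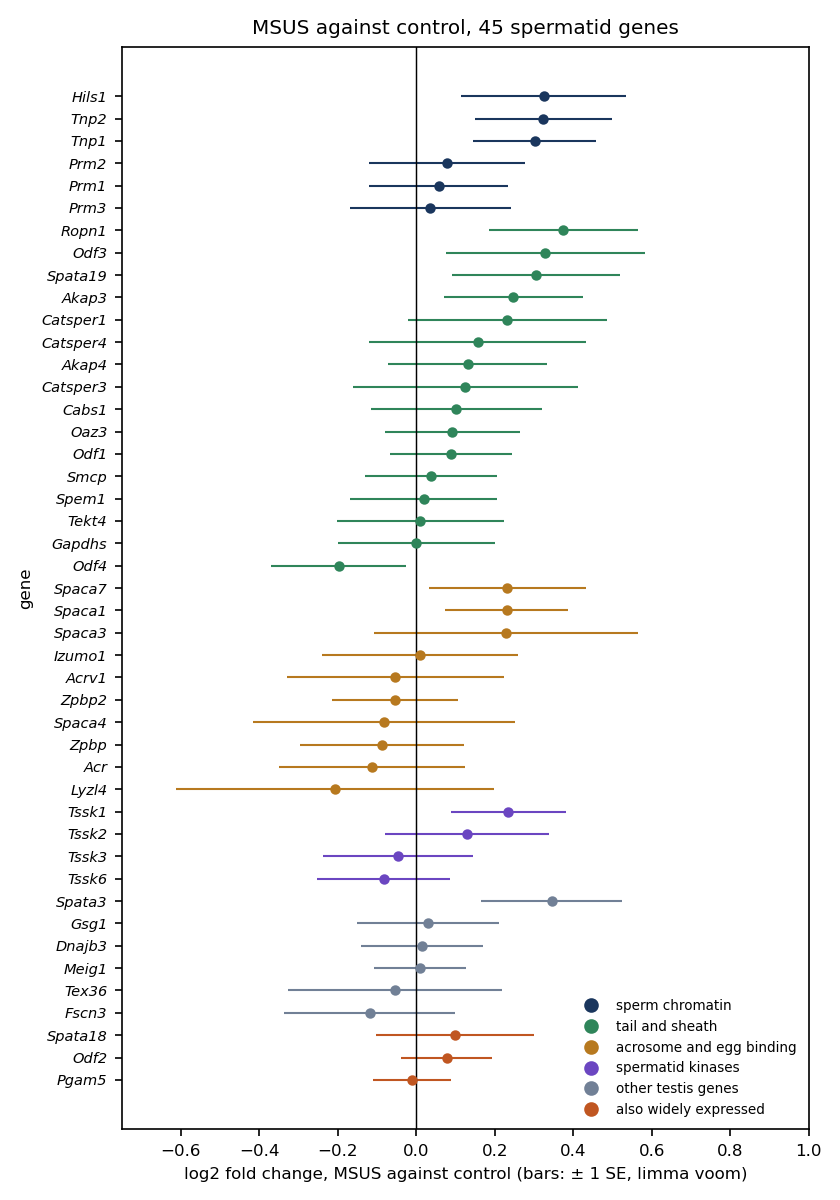
Log2 fold change of MSUS samples against controls (x axis) for each of the 45 genes (y axis), coloured by role, with bars of 1 standard error from limma voom. Estimates lie between -0.21 for *Lyzl4* and 0.37 for *Ropn1*, and none reached p under 0.05.

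Levels of the members spread widely between mice. The median SD of a member over the 13 libraries was 0.41 log2 CPM, against 0.234 for all genes, and at 6 log2 CPM or more it was 0.371 for 12 members against 0.128 for 3348 genes. The SD was more than 2 times the counting error of the gene's own counts for 43 of the 45 members (95.6%), with a median ratio of 3.76, against 59.5% and 2.19 for all genes tested. Sertoli cell markers had a median SD of 0.107 in the same libraries. Among lists described further on, the median SD was 0.370 for other spermatid genes, 0.304 for spermatid regulators and 0.392 for spermatocyte markers. Spermatogonia markers had 0.386, endothelial markers 0.356, Leydig cell markers 0.823 and peritubular myoid markers 1.11. A wide spread was thus not particular to the members. Within groups, 43 of 45 members had a larger SD in MSUS samples than in controls, against 64.5% of all genes. Without MSUS 11 it was 36 of 45 against 61.0%, and without MSUS 11 and MSUS 26 it was 30 of 45 against 54.6%.

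Late and early genes were then set side by side over the 13 libraries. The late list holds 14 genes of nuclear condensation and tail assembly and the early list holds 12 genes, 9 of them of the acrosome with *Meig1*, *Gsg1* and *Dnajb3*, while 19 members were assigned to neither stage. The mean of the late genes was 5.72, 6.13 and 6.32 log2 CPM at the lowest, median and highest control and 5.48, 6.26 and 6.81 in MSUS samples. For the early genes these values were 3.58, 3.83 and 3.93 in controls and 3.40, 3.77 and 4.71 in MSUS samples. MSUS 11 was highest on both lists, MSUS 26 was lowest on the late list and MSUS 1, which was above the median of all libraries on the late list, was lowest on the early list.

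Group means of the late genes differed by 0.13 log2 CPM (SD 0.21 in controls and 0.46 in MSUS samples) and those of the early genes by 0.03 (SD 0.14 and 0.44), both less than the spread between mice. Without MSUS 11 these differences were 0.03 and -0.11, and without MSUS 26 they were 0.26 and 0.10. The late minus early difference was 2.29 ± 0.29 (SD, n = 6) in controls and 2.39 ± 0.31 (SD, n = 7) in MSUS samples, and it ranged from 1.81 in control 22 to 2.86 in MSUS 1. Between groups it differed by 0.10, by 0.15 without MSUS 11 and by 0.16 without MSUS 26. With each replicate left out this value ran from 0.0030 to 0.16. As a description over 13 libraries that share a depth within each library, the late and the early means had a Pearson r of 0.63 and a Spearman rho of 0.43. The r was -0.38 in the 6 controls and 0.76 in the 7 MSUS samples, 0.37 without MSUS 11, and 0.11 without MSUS 11 and MSUS 26, the 2 libraries farthest from the median. The r thus depended on these libraries, though leaving out the ends of a range can itself lower an r.

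**Figure D3:**
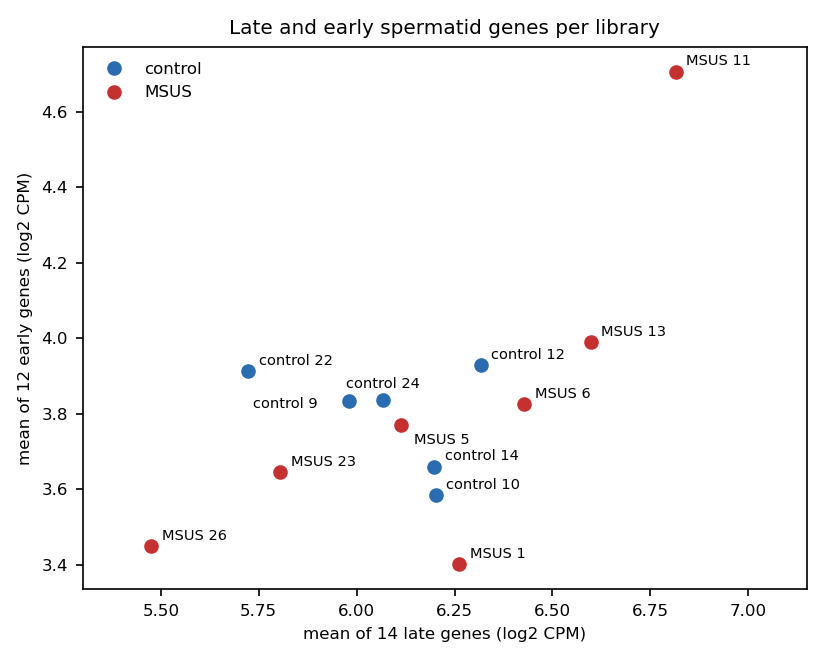
Mean log2 CPM of the 12 early genes (y axis) against that of the 14 late genes (x axis), 1 point per library, blue for controls and red for MSUS samples. MSUS 11 lies alone at the upper right with 6.81 and 4.71, and the other libraries spread along the late axis from 5.48 to 6.60 with early means between 3.40 and 3.99.

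Late genes followed one pattern over the libraries. Their mean pairwise correlation was 0.78, and the first principal component held 80.4% of their variance, against 0.0008 and 18.6% for all genes tested. For the 10 Sertoli cell markers, a set of more like size, these values were 0.35 and 46.7%. Without MSUS 11 the late genes had 0.72 and 75.5%. Early genes had a mean pairwise correlation of 0.56, which was 0.26 without MSUS 11, and their first component held 61.6% and 37.8%. Their median level was 3.44 log2 CPM, against 6.47 for the late genes. Between late and early genes the mean pairwise correlation was 0.45, and 0.20 without MSUS 11. Of the 16 tail genes, the 8 on the late list had a mean pairwise correlation of 0.83, and 0.77 without MSUS 11, while the other 8, assigned to neither stage, had 0.52 and 0.28. The late ones also drew more counts, with median counts of 84 to 2229 against 35 to 575, and their median counting error was 0.0486 against 0.137 on the log2 scale. The part of count level in these differences, between stages and between tail genes, was not tested.

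Each gene was also compared with the mean of the late genes, leaving the gene itself out. Of the 14 late genes 10 had an r over 0.9, led by *Oaz3* (0.97), *Akap4* (0.96) and *Prm2* (0.94), and the lowest was *Odf3* (0.64). Without MSUS 11, *Tnp2* (0.865), *Smcp* (0.89), *Gapdhs* (0.89) and *Cabs1* (0.89) were no longer over 0.9. The median r of the late genes was 0.91, and 0.89 without that library, when *Odf3* had 0.47. The acrosome genes had a median r of 0.38, and 0.03 without MSUS 11, when 3 of the 10 were below 0. Their median level was also lower, 2.47 log2 CPM against 6.47 for the late genes. The part of count level in their lower r was not tested. *Spaca1* moved from 0.34 to -0.15, *Zpbp2* from 0.35 to 0.01 and *Zpbp* from 0.05 to -0.39 when MSUS 11 was left out. *Gsg1*, listed as early, had 0.95 with and 0.96 without that library, within the range of the late genes. *Tssk2* had 0.90 and *Tssk6* 0.86, and 0.85 and 0.87 without MSUS 11, while *Tssk1* had 0.54, and 0.17 without MSUS 11. Of the members also expressed in many somatic cells, *Odf2* had 0.84 and *Spata18* 0.86, and 0.76 and 0.81 without MSUS 11. *Pgam5*, the other one, had an r of 0.00, and 0.18 without MSUS 11. Over all libraries *Catsper3* had an r of -0.14, the lowest of all members.

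**Figure D4:**
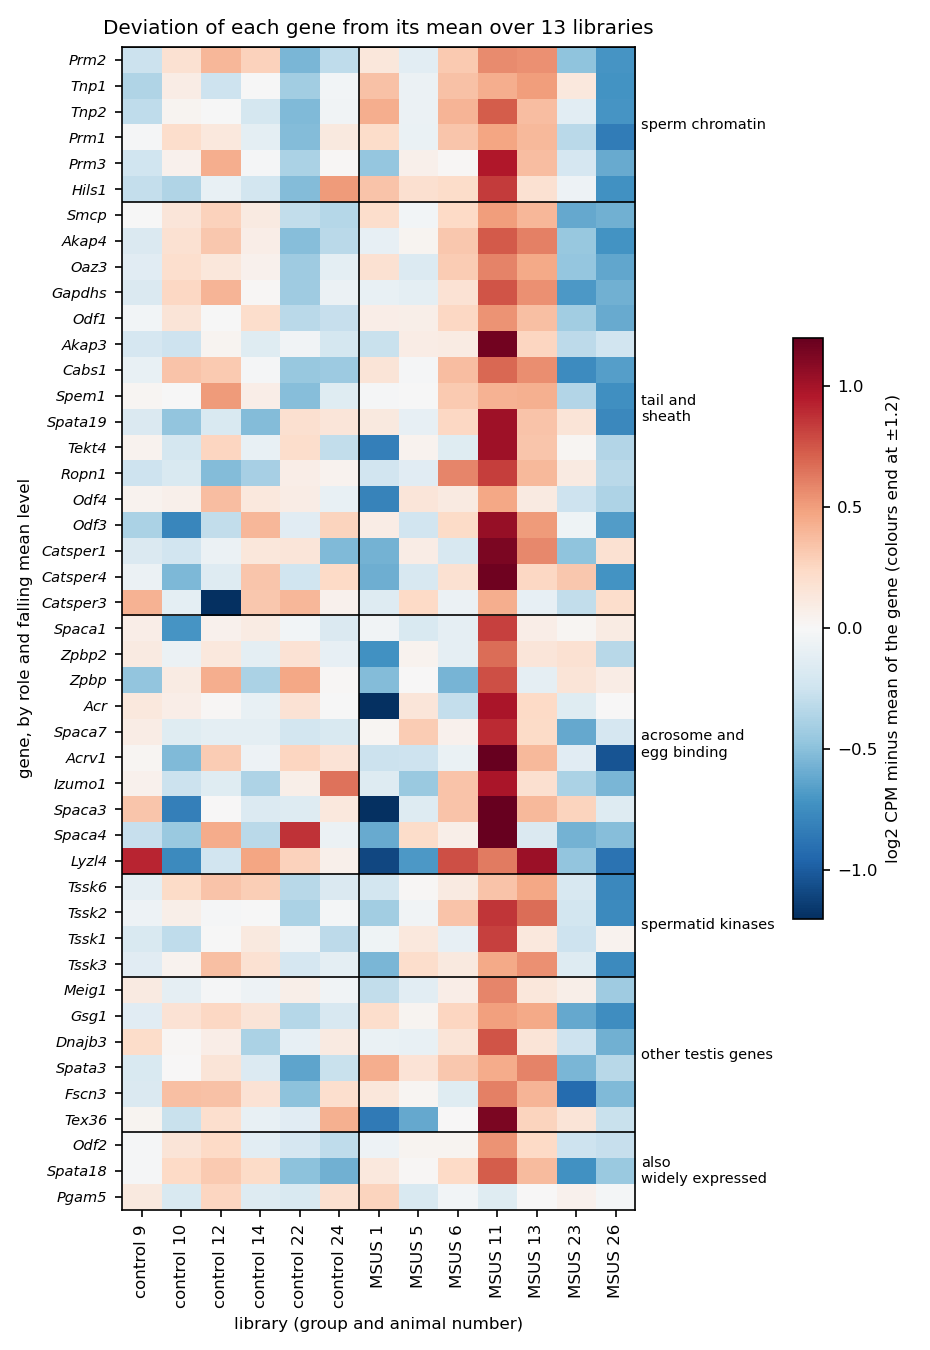
Deviation of each of the 45 genes (rows, by role) from its own mean in every library (columns, controls left of the line), in log2 CPM with colours ending at ±1.2. MSUS 11 is above the mean for 44 genes and MSUS 26 for 6, and the rows of the late genes share a pattern over the other libraries as well.

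**Figure D5:**
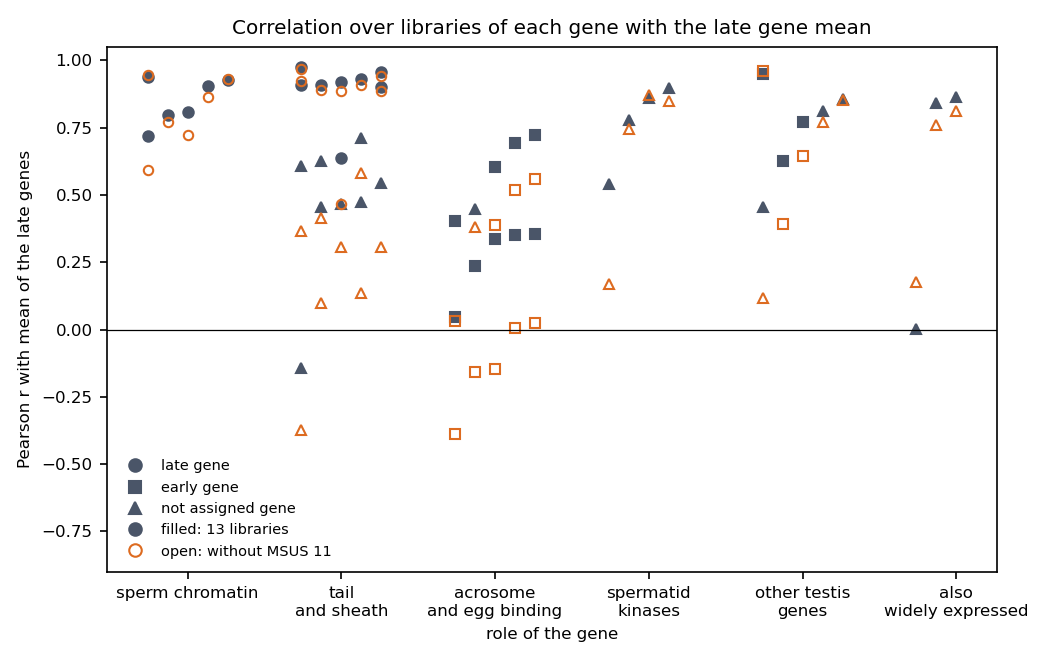
Pearson r over libraries of each gene with the mean of the late genes (y axis), by role (x axis), with circles for late, squares for early and triangles for other members, filled for all 13 libraries and open without MSUS 11. Late genes stay between 0.47 and 0.97 without that library, and acrosome genes lie between -0.39 and 0.56.

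Single gene pairs gave the relations a test, with permutation p-values adjusted over 5 pairs. *Prm1* and *Tnp1*, which lie on different chromosomes, had a Pearson r of 0.83 (permutation p = 0.00036, adjusted 0.0018) and a Spearman rho of 0.79 (permutation p = 0.00194, adjusted 0.0097) over 13 libraries. Within groups it was 0.63 in controls and 0.94 in MSUS samples. Without control 22 and MSUS 26, the libraries farthest from the median of *Prm1*, r was 0.61 and no longer passed (permutation, adjusted p = 0.112). Leaving out the ends of the range of *Prm1* can itself lower r, so this cannot show how far the relation rested on them. *Acrv1* and *Spaca1*, both of the acrosome, had an r of 0.65 (permutation p = 0.0233, adjusted 0.0584) and a rho of 0.40 (permutation p = 0.184, adjusted 0.230). The r was 0.79 in controls, 0.72 in MSUS samples, 0.27 without MSUS 11 and 0.68 without MSUS 26 and MSUS 11.

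Across stages *Prm1* and *Acrv1* had an r of 0.58 (permutation p = 0.0405, adjusted 0.0675) and a rho of 0.40 (permutation p = 0.177, adjusted 0.230), with -0.44 in controls and 0.81 in MSUS samples, and 0.51 without control 22 and MSUS 26. *Prm1* with *Sycp3*, a protein of the meiotic chromosome axis, had an r of 0.31 (permutation p = 0.299, adjusted 0.299) and a rho of 0.41 (permutation p = 0.167, adjusted 0.230). With *Sox9* the r of *Prm1* was -0.39 (permutation p = 0.188, adjusted 0.235) and the rho -0.23 (permutation p = 0.459, adjusted 0.459). Within groups the r of *Prm1* with *Sycp3* was 0.43 in controls and 0.35 in MSUS samples. With *Sox9* it was 0.55 in controls and -0.65 in MSUS samples, of opposite sign. Neither of the last 2 pairs passed, and without control 22 and MSUS 26 they had an r of 0.24 and -0.17.

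Other genes of the same cells were read from further lists. Of 20 other spermatid genes, 1 was higher at unadjusted p under 0.05, *Cylc1* of the perinuclear theca (log2 fold change 0.63, SE 0.23, adjusted p = 0.878 by limma voom), 11 were positive, and the median log2 fold change was 0.02, where 3.02% of all genes were higher and 49.5% positive. *Cylc1* reached that unadjusted threshold in all 13 fits that left out 1 library, with log2 fold changes of 0.51 to 0.72. Without MSUS 11, 6 of the 20 were positive, with a median of -0.13, and without MSUS 26 it was 17, with a median of 0.14 and 3 higher. *Ldhc*, the germ cell lactate dehydrogenase, and *Tcp11* drew the most counts of the list, at 7.64 and 7.62 log2 CPM, a scale that is not per length. The mean of this list had an r of 0.86 with the mean of the late members, and 0.82 without MSUS 11. Of 12 regulators of spermatid expression, none passed in either direction and 5 were positive, with a median of -0.02, and without MSUS 11 it was 1, with a median of -0.11, and without MSUS 26 it was 7, with a median of 0.0032. The RNA-binding proteins *Ybx2* and *Ybx3*, which hold stored messages, led these with 7.47 and 7.27 log2 CPM, and their list had an r of 0.57, and 0.28 without MSUS 11.

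Markers of earlier germ cell stages were read in the same way. Of 12 spermatocyte markers 10 had a negative log2 fold change, with a median of -0.25, and 1 was lower at unadjusted p under 0.05, *Sycp2* (-0.34, SE 0.15, adjusted p = 0.878 by limma voom). Of all genes 50.5% were negative and 2.4% lower. Without MSUS 1, the lowest library of the list, 8 of the 12 were negative with a median of -0.10, and none was lower at unadjusted p under 0.05. *Sycp2* reached that threshold in 5 of the 13 fits that left out 1 library. The difference of the list's mean between groups was -0.18 log2 CPM over all libraries, -0.065 without MSUS 1, -0.26 without MSUS 11 and -0.15 without MSUS 26. *Piwil1*, which binds piRNAs, and *Sycp1*, of the synaptonemal complex, drew the most counts, at 6.23 and 5.91 log2 CPM. The summed level of the list was 302, 384 and 413 CPM in controls (lowest, median and highest) and 206, 332 and 485 CPM in MSUS samples. Its mean had an r of 0.24 with the late members, and 0.02 without MSUS 11. Only 3 of 10 spermatogonia markers passed the filter, and *Nanos2* and *Nanos3*, which define undifferentiated spermatogonia, were at 0 in 8 and 11 libraries. *Uchl1* drew most of the counts of that list, at 7.71 log2 CPM, *Sohlh2* had 1.57, and the list summed to 181 to 263 CPM over all libraries. The mean of the spermatogonia list had an r of 0.56 with the late members, and 0.41 without MSUS 11. Of its tested genes, *Sohlh2* had an r of 0.77, *Stra8* 0.24 and *Uchl1* -0.34.

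Somatic cells other than Sertoli cells were checked in the same way. The Sertoli cell markers themselves had a mean with an r of -0.31 with the late members, and -0.15 without MSUS 11. All 5 Leydig cell markers were tested, led by *Star* (4.72 log2 CPM) and *Insl3* (3.62), with a summed level of 29.95 to 66.7 CPM in the control libraries and 39.9 to 83.1 CPM in the MSUS libraries. Their mean had an r of 0.09 with the late members, and 0.24 without MSUS 11. Of these 3 had a positive log2 fold change, with a median of 0.29. Of the 5 peritubular myoid markers 4 were tested, led by *Acta2* (3.69) and *Myh11* (3.10), and *Cnn1* was at 0 in 5 libraries. Their sum was 8.03 to 62.8 CPM in the control libraries and 11.5 to 92.6 CPM in the MSUS libraries, and the list had an r of -0.52 with the late members. All 4 had a positive log2 fold change, against 49.5% of all genes, with a median of 0.66, and none reached p under 0.05. Of the macrophage markers only *Mrc1* was tested, at 8.82 log2 CPM with a log2 fold change of -0.10, while *C1qa* was at 0 in 12 libraries and *Adgre1* had a mean of -1.49. The 5 endothelial markers were led by *Pecam1* (4.88) and *Cdh5* (4.53). Of these 4 were positive, with a median of 0.22, and 1 was higher at unadjusted p under 0.05, *Tek* (0.75, SE 0.31, adjusted p = 0.878 by limma voom) and also in 11 of the 13 fits that left out 1 library. Without MSUS 26, 2 endothelial markers and 1 spermatogonia marker were higher and *Mrc1* was lower (-0.15) at that threshold. In that fit 5.02% of all genes passed in either direction. The part of these cells in the levels of the spermatid genes was not tested.

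Genes outside all lists whose levels were most like the late mean were named by their r after group means were taken out. The closest 10, spelled as in the deposited table, were *X1700029H14Rik* (0.99), *BB014433* (0.97), *X2810408A11Rik* (0.97), *X4930571K23Rik* (0.97), *Spz1* (0.96), *Cdiptos* (0.96), *Bcl2l14* (0.96), *Stard10* (0.95), *Plcz1* (0.95) and *X4933411K16Rik* (0.95). *Plcz1* encodes the sperm phospholipase that starts calcium waves in the egg, and *Spz1* is a transcription factor of the testis. This r, with group means taken out, was over 0.9 for 69 of the 14421 genes tested (0.478%). Those genes include late genes, which are part of the late mean here. Of the 31 members that are not late genes it was over 0.9 for 2, *Gsg1* (0.96) and *Tssk6* (0.91).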

How the data were processed

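RNA of sorted Sertoli cells from 6 control and 7 MSUS mice was sequenced with a stranded total RNA kit for small inputs (5 ng of RNA and 12 PCR cycles). The deposited values are estimated counts per gene, which the authors made with Salmon 1.1.0 on GENCODE vM23 transcripts after trimming with Trim Galore 0.6.5. How transcripts were summed to genes and whether strand was used in counting are not given in the sources used here. Here the estimated counts were rounded, and 27170 of 54281 features that carry no gene name, with 20.7% to 26.7% of the counts of a library, were left out.

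Genes were kept by edgeR's filterByExpr (minimum count 10), scaled by TMM and compared with limma 3.58.1 voom, with Benjamini-Hochberg adjustment over all 14421 genes, in R 4.3.3. Alternatives were edgeR 4.0.16, DESeq2 1.42.0, library size alone, DESeq2 size factors, other filters on low counts, unnamed features kept, sample quality weights and each replicate left out. For log2 CPM levels the prior count was 2, and permutation p-values of gene pairs are two-sided. The scripts were tested on simulated data. Positions and lengths are of GENCODE vM21 (GRCm38), and promoter windows are of RefSeq (GRCm38.p6).

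The members and lists were chosen with earlier results of these data known. Values by group are given for the 3 members of each role with the highest mean log2 CPM and the 3 of smallest p either way, for the 2 highest genes of each other list with any at p under 0.05, and for the 10 genes outside the lists most like the late mean. *H1f7*, and the share of counts and the lists without single replicates, were added after the data were seen. The p-values of limma voom set a group difference against the spread between libraries of single mice. Those of gene pairs over all libraries come from reshuffling libraries across both groups. Litter and cage were not modelled, so libraries may not be fully independent.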

Additional observations from a re-analysis of the deposited data

Results flagged for a closer look

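In 66 groups of values, 4 held a library far from the others of its group, where chance flags about 1 in 20 groups. *Tssk1* was at 4.77 log2 CPM in MSUS 11, against 4.07 in the next MSUS library. *Spaca1* was at 5.72 log2 CPM in MSUS 11, against 4.99 in the next. *Spaca1* was also at 4.19 log2 CPM in control 10, against 4.72 in the next lowest control. *Tssk2* was at 4.21 log2 CPM in control 22, against 4.53 in the next lowest control.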

How the results depend on the processing

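No member was called after adjustment under any alternative run. At unadjusted p under 0.05 the members higher in MSUS samples were 0 by limma voom, 4 by edgeR, 3 by DESeq2 and 4 with sample quality weights (3.02%, 3.31%, 3.72% and 4.13% of all genes), and 0 to 6 with each replicate left out, the 6 without MSUS 26 (2.06% to 4.47% of all genes). A positive log2 fold change was found for 39 members by edgeR and DESeq2, 27 with library size alone and 18 to 38 with each replicate left out, the 18 without MSUS 11 and 22 without MSUS 13, and the median was -0.01 to 0.17. Of all 45 members, 6 turned sign by edgeR, 6 by DESeq2, 6 with library size alone and 2 to 17 with a replicate left out. Among the 23 genes with values by group, these were *Zpbp2* (0.013 by edgeR and 0.020 by DESeq2), and *Dnajb3* (-0.0071) and *Meig1* (-0.0071) with library size alone. With replicates left out the ranges that crossed 0 were -0.026 to 0.21 for *Prm2*, -0.042 to 0.14 for *Smcp*, -0.0051 to 0.14 for *Odf2*, -0.0034 to 0.28 for *Tssk2*, -0.17 to 0.054 for *Tssk6*, -0.22 to 0.0066 for *Zpbp*, -0.17 to 0.068 for *Zpbp2*, -0.11 to 0.12 for *Dnajb3*, -0.087 to 0.088 for *Meig1*, -0.049 to 0.17 for *Gsg1*, -0.013 to 0.22 for *Spata18*, -0.25 to 0.0060 for *Fscn3* and -0.059 to 0.044 for *Pgam5*. The group difference of the early mean was -0.11 to 0.10 and that of the late mean 0.03 to 0.26. Of the pairs, *Acrv1* with *Spaca1* (r 0.68) and *Prm1* with *Acrv1* (0.62) passed with library size alone (permutation, adjusted p = 0.0433 each). In controls alone r was 0.63 for *Prm1* with *Tnp1*, 0.79 for *Acrv1* with *Spaca1*, -0.44 for *Prm1* with *Acrv1*, 0.43 for *Prm1* with *Sycp3* and 0.55 for *Prm1* with *Sox9* (permutation, adjusted p = 0.35 each), and without the 2 libraries farthest from the median *Prm1* with *Tnp1* had 0.61. The cause of these changes was not tested. No paired analysis was possible because the groups share no replicate number, which is an animal number here. Litter and cage of the mice were not modelled. Genes with under 30 counts in their lowest library, 8 of the members, are limited by depth.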

Other observations

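The difference between the mean level of the transition protein genes *Tnp1* and *Tnp2* and that of the protamine genes *Prm1* and *Prm2* was looked at after the values were seen, and it was not tested. It was -0.65 ± 0.17 log2 (SD, n = 6) in controls, from -0.91 in control 12 to -0.45 in control 22. In MSUS samples it was -0.40 ± 0.15 (SD, n = 7), from -0.55 in MSUS 13 to -0.12 in MSUS 23, so the groups overlapped.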
